A study of Mus musculus with 2 samples.

Results

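The miR-17-92 and miR-106b-25 clusters were followed in exosomes, small vesicles shed by cells, from the serum of mice with subcutaneous Lewis lung carcinoma (LLC) tumours. The members were chosen by name as the guide strands of both clusters, the strand of each hairpin that is usually kept in the silencing complex. They are mmu-miR-17-5p, mmu-miR-18a-5p, mmu-miR-19a-3p, mmu-miR-20a-5p, mmu-miR-19b-3p and mmu-miR-92a-3p of miR-17-92, and mmu-miR-106b-5p, mmu-miR-93-5p and mmu-miR-25-3p of miR-106b-25. These are 9 of the 1881 mouse miRNAs on the array. In the LLC group, female C57BL/6 mice carried tumours grown from 1000000 luciferase-expressing LLC cells, a mouse lung cancer line. In the MSC+LLC group, mice of the same kind received the same number of these cells mixed with murine bone marrow-derived mesenchymal stem cells (BMSCs), which had been purchased and came from C57BL/6 mice. Strain, sex and an age of 6 weeks come from the methods of the study. Serum was taken at a mean tumour volume of 200 mm3, and 100 ng of RNA was labelled for each array. The source is serum by the labels and plasma by the text of the study, and neither states how many mice stood behind a sample. Each group had 1 array, so every difference given here is one between 2 arrays and carries no p-value. The SD of a signal is taken over the spots of a probe. For a ratio between the arrays, it is the error of the average over probes, carried over from the spot SDs of both arrays. It is a technical error that leaves out differences between probes, and says nothing of the spread between mice. Host blood cells, host organs, tumour cells and injected BMSCs can all release vesicles into serum, and fewer vesicles of a kind cannot be told apart from less of a miRNA per vesicle.

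The miR-17-92 cluster, also known as oncomir-1, is cut from a single primary transcript that is induced by MYC and E2F factors and is amplified or overexpressed in lymphomas and lung cancers. Its paralog miR-106b-25 lies in an intron of Mcm7, which encodes a subunit of the helicase that opens DNA for replication, and a further paralog, miR-106a-363, lies on the X chromosome. The mature miRNAs fall into seed families. The miR-17 family restrains the cell cycle inhibitor p21 and E2F1, and the miR-25/92 family lowers the pro-apoptotic protein Bim.

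The mature sequences are shown because the families are defined by bases 2 to 8 from the 5′ end, the seed, which is printed in capitals. They were taken from RefSeq's mouse table of build GRCm38.p6 and matched by name for 9 of 9 members. Within a family the seed was identical, and the families differed from each other inside it.
miR-17-5p: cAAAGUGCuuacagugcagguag
miR-20a-5p: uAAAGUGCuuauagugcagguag
miR-106b-5p: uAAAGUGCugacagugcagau
miR-93-5p: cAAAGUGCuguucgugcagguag
miR-18a-5p: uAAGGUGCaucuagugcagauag
miR-19a-3p: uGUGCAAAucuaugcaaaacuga
miR-19b-3p: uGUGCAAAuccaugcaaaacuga
miR-92a-3p: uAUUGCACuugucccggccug
miR-25-3p: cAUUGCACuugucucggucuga

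Outside the seed, the family members that are most alike are shown again below with capitals at the bases that differ, since an array probe has to tell them apart. Between miR-20a-5p and miR-17-5p, 2 of 23 positions differed, and between miR-19a-3p and miR-19b-3p only 1 of 23. miR-92a-3p differed from miR-25-3p at 3 of the 21 positions compared from the 5′ end.
miR-17-5p against miR-20a-5p: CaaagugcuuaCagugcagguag
miR-106b-5p against miR-20a-5p: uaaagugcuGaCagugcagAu
miR-93-5p against miR-20a-5p: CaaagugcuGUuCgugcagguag
miR-19b-3p against miR-19a-3p: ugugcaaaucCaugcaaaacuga
miR-92a-3p against miR-25-3p: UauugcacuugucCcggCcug

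In the same build, the 6 hairpins of miR-17-92 lay on the plus strand of chromosome 14 within 836 bases (chr14:115043671-115044506), in the order Mir17, Mir18, Mir19a, Mir20a, Mir19b-1 and Mir92-1. The 3 hairpins of miR-106b-25 lay on the minus strand of chromosome 5 within 498 bases (chr5:138165321-138165818), all inside the span of Mcm7. The mature sequences of miR-19b-3p and miR-92a-3p each have a second locus on the X chromosome, Mir19b-2 and Mir92-2, with an identical sequence. Their signal could therefore not be divided between miR-17-92 and miR-106a-363.

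The MSC+LLC array was much dimmer than the LLC array, and this bears on every value of the clusters. For probes that passed detection on both, the 75th percentile stood at 2883 intensity units in the LLC sample and 250.3 in the MSC+LLC sample, 11.5-fold apart. Ratios are therefore given as log2 of MSC+LLC over LLC after each array was divided by that percentile, which raised every log2 ratio by 3.53. They are relative to the other detected miRNAs, not amounts. Detection required more than 50% of a probe's spots to be well above background, and the dimmest detected probes stood at 20.9 units for LLC and 18.8 for MSC+LLC. Of the 1881 miRNAs, 240 were measured on both arrays, with a median log2 ratio of 0.15 and quartiles of -0.45 and 1.18. A miRNA faint on the LLC array could pass detection on the dimmer array only with a high scaled ratio. This filter raises the median, the quartiles and the share of higher miRNAs among the 240, by an amount that was not tested. Spike-in RNAs added before labelling differed by -1.32 on the log2 scale without scaling, and those added before hybridization by 0.038. Both arrays lay on 1 slide and were read in 1 scan, so position on the slide and group cannot be told apart.

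All 9 guide strands were detected in serum exosomes of the LLC group, and 8 of 9 in those of the MSC+LLC group. Of all 1881 miRNAs, 502 and 258 were detected. Before scaling, all 8 were dimmer on the MSC+LLC array, by 4.84-fold for miR-92a-3p to 30.3-fold for miR-18a-5p. After scaling, the members parted. miR-92a-3p was 2.38-fold higher on the MSC+LLC array, miR-93-5p and miR-25-3p were close to equal, and the other 5 were lower by 1.38-fold to 2.63-fold. The median log2 ratio of the 8 measured members was -0.60, which is 0.75 below the median of all 240 miRNAs, and 7 of the 8 lay below that median. The 8 members were bright on the LLC array, while the median of the 240 is raised by the detection filter. The distance of 0.75 therefore holds against this filtered background only. At a 2-fold threshold, 1 of 8 members was higher, where 27.1% of all 240 miRNAs were, and 1 of 8 was lower, where 11.2% of all were. In either direction, 2 of 8 members passed the threshold, against 92 of the 240 miRNAs or 38.3%, so the members did not pass it more often than the background.

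**Figure D1:**
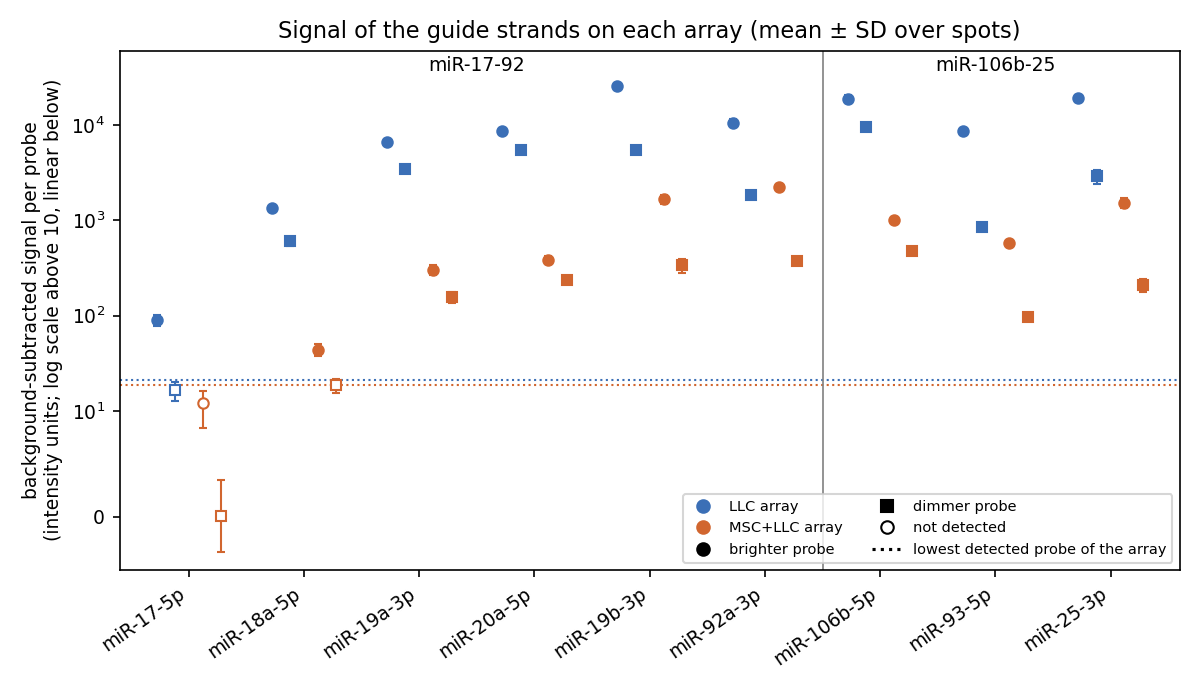
Background-subtracted signal of each probe of the 9 guide strands on the LLC array (blue) and the MSC+LLC array (orange), in intensity units on an axis that is logarithmic above 10 and linear below, with bars for the SD over spots. Circles are the brighter and squares the dimmer probe of a miRNA, open symbols were not detected, dotted lines mark the dimmest detected probe of each array (20.9 and 18.8 units), and all probes were dimmer on the MSC+LLC array, miR-17-5p to below the line.

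miR-17-5p, which opens the transcript of miR-17-92, was near the detection limit and could not be followed. On the LLC array its brighter probe gave 89.7 ± 11.0 units (SD, n = 13 spots), with all 13 spots well above background. In the MSC+LLC sample this probe gave 12.2 ± 3.82 units (n = 15), with 0 of 15 spots well above background. The dimmer probe gave 16.4 ± 3.75 units (n = 14) on the LLC array and 0.0975 ± 3.39 (n = 15) on the MSC+LLC array and was detected on neither. Without scaling, miR-17-5p was at least 4.77-fold dimmer on the MSC+LLC array, measured against the dimmest detected probe there. That is less than the 11.5-fold by which the arrays differed elsewhere, so these arrays give no direction for miR-17-5p relative to the other miRNAs. In the deposited table of the authors, miR-17-5p differed by -4.60 on the log2 scale, the lowest difference of the 9 members. This value rests on the 0.1 units that the scanner software writes for an undetected miRNA, against a summed signal of 28.2 units on the LLC array.

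miR-18a-5p, the only member of its seed family in these clusters, had the lowest ratio. Its brighter probe gave 1334 ± 94.7 units on the LLC array (n = 15) and 44.0 ± 6.45 on the MSC+LLC array (n = 15), where all 15 spots were well above background. Its dimmer probe gave 603 ± 68.9 units (n = 14) and 18.6 ± 3.17 (n = 15), and only 7 of the last 15 spots were well above background. The brighter probe gave a log2 ratio of -1.40 with an SD over spots of 0.24, that is 2.63-fold lower on the MSC+LLC array. The dimmer probe set a bound of at least 2.79-fold lower on the same scale. With normexp background correction the log2 ratio was -0.46, which ends the 2-fold call. That correction was run with an offset of 50 units, more than the 44.0 units of this probe on the MSC+LLC array. Such an offset draws the ratios of faint probes toward 0 before scaling by construction. Only 5.42% of the 240 miRNAs lay below miR-18a-5p.

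miR-20a-5p, the copy of the miR-17 family in the middle of the cluster, was also lower on the MSC+LLC array. Its probes gave 8727 ± 460 units (n = 14) and 5395 ± 386 (n = 13) on the LLC array, and 387 ± 36.6 (n = 15) and 237 ± 21.5 (n = 15) on the MSC+LLC array. The log2 ratio was -0.97 (SD over spots 0.11), 1.97-fold lower and so just short of 2-fold, and its probes differed from each other by 0.011.

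The miR-19 pair, which carries much of the oncogenic activity of the cluster in mouse lymphoma, had ratios that differed although the sequences differ at a single base. miR-19a-3p gave 6656 ± 503 units (n = 15) and 3472 ± 335 (n = 12) on the LLC array, and 304 ± 35.5 (n = 15) and 156 ± 20.6 (n = 15) on the MSC+LLC array. miR-19b-3p gave 25315 ± 2134 units (n = 15) and 5521 ± 240 (n = 11) on the LLC array, and 1653 ± 187 (n = 15) and 336 ± 55.9 (n = 15) on the MSC+LLC array. The log2 ratio was -0.94 (SD over spots 0.15) for miR-19a-3p and -0.46 (0.16) for miR-19b-3p. The difference of 0.48, a factor of 1.39, was larger than its SD over spots of 0.22, and the probes of the pair did not overlap. miR-19b-3p is the member of the pair with the additional X-linked locus.

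miR-92a-3p, which closes the transcript and is known from endothelial cells and red cell precursors, was the only member above the median of all miRNAs. Its brighter probe gave 10488 ± 1014 units (n = 15) on the LLC array and 2223 ± 167 (n = 15) on the MSC+LLC array. Its dimmer probe gave 1853 ± 130 units (n = 14) and 373 ± 26.9 (n = 13). The log2 ratio was 1.25 (SD over spots 0.11), with the probes at 1.29 and 1.21, and 76.7% of the 240 miRNAs had a lower ratio. It thus lay just above the upper quartile of all 240 miRNAs, which began at 1.18.

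The members of miR-106b-25 lay closer together. miR-106b-5p of the miR-17 family gave 18884 ± 1748 units (n = 15) and 9536 ± 710 (n = 14) on the LLC array, and 1017 ± 53.2 (n = 13) and 481 ± 27.7 (n = 14) on the MSC+LLC array, a log2 ratio of -0.74 (SD over spots 0.10). miR-93-5p of the same family gave 8539 ± 686 units (n = 14) and 859 ± 64.8 (n = 15) on the LLC array, and 576 ± 33.6 (n = 14) and 96.7 ± 9.37 (n = 13) on the MSC+LLC array. Its log2 ratio was 0.0054 (SD over spots 0.11), but the brighter probe was at -0.36 and the dimmer at 0.38. This range of 0.74 was the widest of the members, against a median of 0.13 for the 146 miRNAs with at least 2 probes measured on both arrays. miR-25-3p, the copy of the miR-25/92 family, gave 18957 ± 1721 units (n = 15) and 2883 ± 465 (n = 15) on the LLC array, and 1525 ± 183 (n = 15) and 209 ± 32.2 (n = 15) on the MSC+LLC array. Its log2 ratio was -0.19 (SD over spots 0.19), so it did not differ from 0 by more than its SD.

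**Figure D2:**
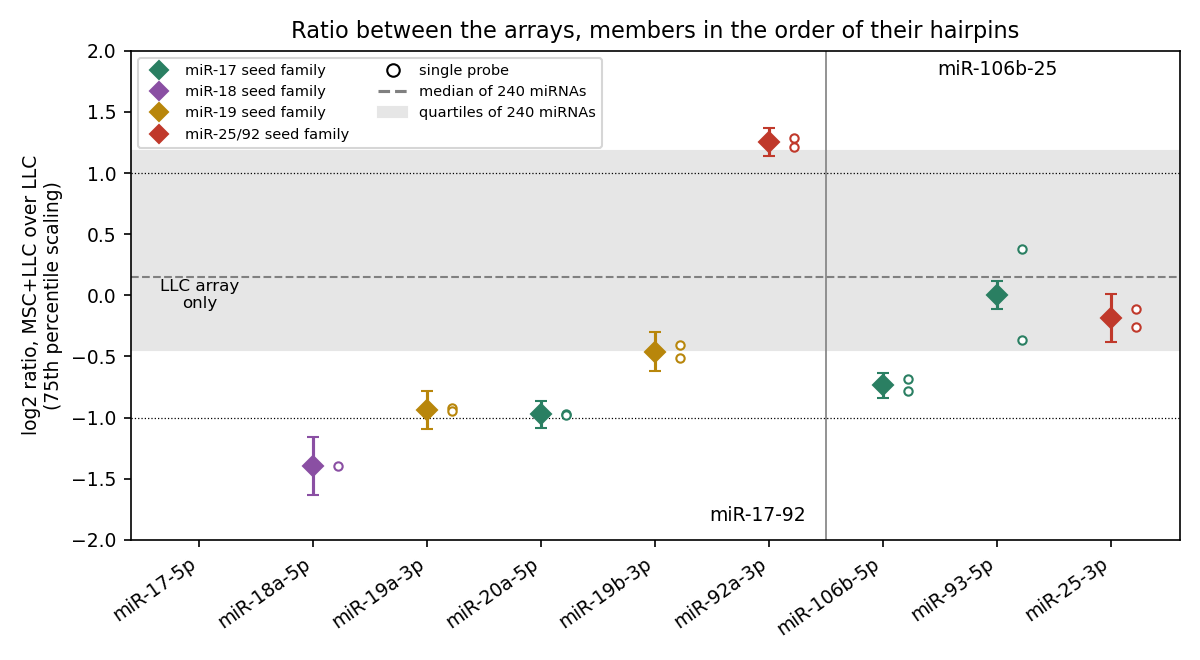
Log2 ratio of MSC+LLC over LLC for each member in the order of the hairpins along the transcripts, as filled diamonds coloured by seed family with bars for the SD over spots, and open circles for single probes. The band holds the quartiles of the 240 miRNAs measured on both arrays (-0.45 to 1.18), the dashed line their median of 0.15, the dotted lines mark 2-fold, and miR-92a-3p at 1.25 is the only member above the band while miR-18a-5p at -1.40 is the lowest below it.

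Members of a single cluster did not share a ratio. Within miR-17-92, the 5 measured members spanned 2.65 on the log2 scale, the 6.27-fold distance between miR-92a-3p and miR-18a-5p, with an SD over spots of 0.26. Without miR-92a-3p, the other 4 measured members spanned 0.94. miR-18a-5p, miR-19a-3p and miR-20a-5p, whose sequences have no X-linked locus, spanned 0.46, so much of the spread rests on miR-92a-3p and miR-19b-3p, whose source cluster is not settled. The part of the X-linked loci in these ratios was not tested. miR-20b-5p, which comes from the X-linked cluster alone, had a log2 ratio of -1.17. The 3 members of miR-106b-25 spanned 0.74, and all lay inside the range of miR-17-92. The median log2 ratio was -0.94 for miR-17-92 and -0.19 for miR-106b-25, a difference of 0.75. This difference is smaller than the spread within miR-17-92, and without the dimmer probes, that is with the brightest probe of each miRNA alone, it was 0.56. Of the 28 pairs of measured members, 26 differed by more than the SD over spots of their difference. The exceptions were miR-19a-3p and miR-20a-5p, 0.038 apart, and miR-93-5p and miR-25-3p, 0.19 apart. This SD leaves out disagreement between the probes of a miRNA. For miR-93-5p it was 0.11, although its probes lay 0.74 apart. The count of 26 is therefore no measure of how surely the members differ.

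Members that share a seed did not share a ratio either. In the miR-25/92 family, miR-92a-3p lay 1.44 above miR-25-3p on the log2 scale, a factor of 2.71, with an SD over spots of 0.23. In the miR-17 family, miR-93-5p lay 0.98 above miR-20a-5p and 0.74 above miR-106b-5p, and miR-106b-5p lay 0.24 above miR-20a-5p with an SD over spots of 0.15. The distances from miR-93-5p are uncertain, since its own probes were 0.74 apart. The median log2 ratio was -1.40 in the miR-18 family, -0.74 in the miR-17 family, -0.70 in the miR-19 family and 0.53 in the miR-25/92 family. All 5 pairs that share a seed differed by more than the SD over spots. Their median distance was 0.74, against 0.75 for the 23 pairs with different seeds. This 0.74 is the distance between miR-93-5p and miR-106b-5p, so it carries the same uncertainty. With the brightest probe alone, miR-93-5p lay at -0.36 and miR-106b-5p at -0.69. The likeness of the medians thus rests in part on the dimmer probe of miR-93-5p. By strand, the 4 measured members from the 5p arm had a median of -0.86 and the 4 from the 3p arm a median of -0.32.

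The order of the members did not depend on a constant factor between the arrays, but the side of 0 on which they fell did. When all probes set the 75th percentile, when spike-ins did, or when nothing was scaled, the ratios moved down together. miR-92a-3p then lay at 0.036 with the 75th percentile of all probes, at -0.96 with the labelling spike-ins, at -1.64 with all spike-ins, at -2.28 without scaling and at -2.31 with the hybridization spike-ins. The percentile of all probes counts mostly undetected probes on the MSC+LLC array, where 258 of the 1881 miRNAs passed detection. The median of the members stayed 0.75 below that of all 240 miRNAs by construction, since each of these scalings adds a constant to every log2 ratio. Members minus all miRNAs came to -0.65 after quantile normalization, where 6 members lay below the median of all. With normexp background correction this difference was -1.37. There, the median of the members was -0.53, beside -0.60 in the main setting. The median of all 240 miRNAs was 0.84, beside 0.15. The larger distance thus came from the other miRNAs and not from lower members. Of the 16 alternatives that gave member ratios, 7 left every difference between members as it was and could not change the order. Under the other 9, miR-92a-3p was the highest of the measured members in 9 and miR-18a-5p the lowest in 8, the exception being normexp background correction, where miR-20a-5p was lowest.

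**Figure D3:**
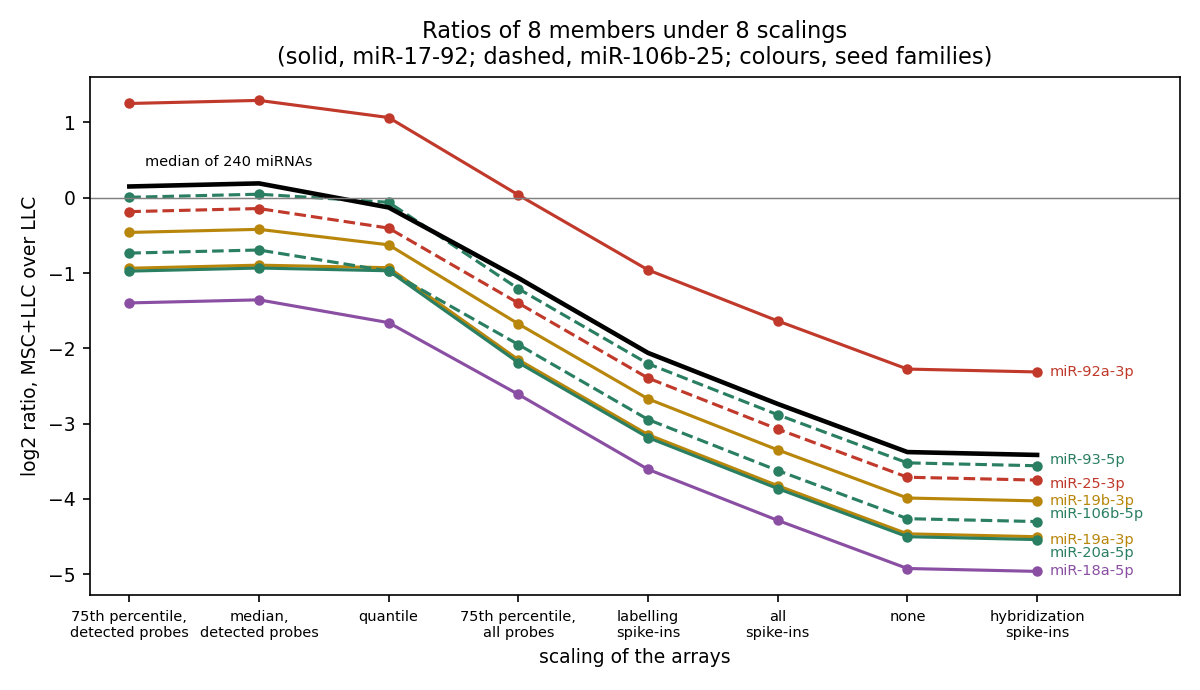
Log2 ratio of MSC+LLC over LLC of the 8 measured members under 8 ways to scale the arrays, with solid lines for miR-17-92, dashed lines for miR-106b-25, colours for seed families and a thick black line for the median of the 240 miRNAs. The lines run in parallel except at quantile normalization, miR-92a-3p moves from 1.25 to -2.31 and stays on top, and miR-18a-5p stays lowest.

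The ratios of the members ran along with the base composition of the mature miRNA, which the rule did not use. G+C content rose from 34.8% in miR-19a-3p over 39.1% in miR-19b-3p and miR-20a-5p, 42.9% in miR-106b-5p, 43.5% in miR-18a-5p, 50% in miR-25-3p and 52.2% in miR-93-5p to 57.1% in miR-92a-3p. The 3 members at 50% or more held the 3 highest ratios. As a description over 8 members that share both arrays, Pearson's r was 0.82 and Spearman's rho 0.68. The other miRNAs showed a weaker correlation of the same sign, with r = 0.16 and rho = 0.28 over the 189 that were measured on both arrays and have a RefSeq sequence. Their median log2 ratio was -0.76 below 40% G+C (n = 25), -0.27 from 40% to below 50% (n = 50), 0.38 from 50% to below 60% (n = 47) and 0.25 from 60% upward (n = 67).

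Set against other miRNAs of like composition, within 5 percentage points of G+C, the members lay closer together. This comparison was chosen after the values were seen. miR-19a-3p and miR-19b-3p both came to -0.028 relative to the median of such miRNAs, so that their difference of 0.48 fell to 0.00082. miR-93-5p came to -0.21, miR-25-3p to -0.34, miR-106b-5p to -0.44 and miR-20a-5p to -0.54. miR-18a-5p remained the lowest at -1.11 and miR-92a-3p the highest at 0.87, with 1.98 between them in place of 2.65. The difference between the cluster medians turned from 0.75 to -0.31, with miR-106b-25 now the lower, so no order of the clusters held under both comparisons. The part that base composition has in the ratios was not tested.

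**Figure D4:**
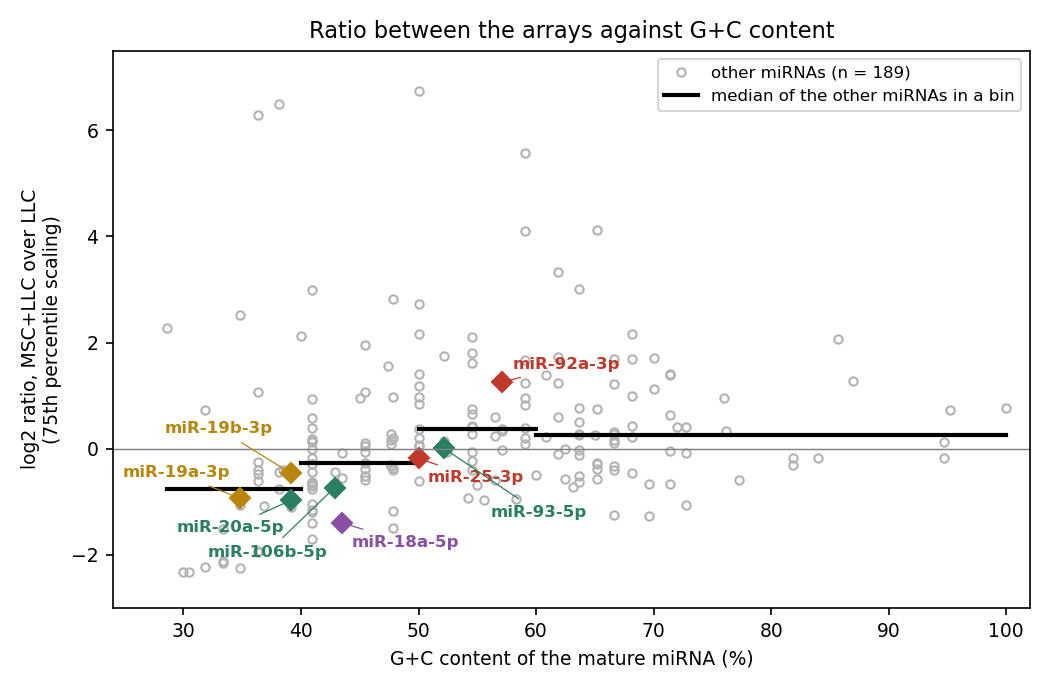
Log2 ratio of MSC+LLC over LLC against the G+C content of the mature miRNA in percent, with diamonds for the 8 measured members coloured by seed family, grey circles for 189 other miRNAs and black bars for the median of these in 4 bins of G+C content. The members rise from miR-19a-3p at 34.8% and -0.94 to miR-92a-3p at 57.1% and 1.25, and the bin medians of the other miRNAs rise from -0.76 to 0.38 and end at 0.25.

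Of the 9 opposite strands of the same hairpins, which are mostly degraded after processing, 2 passed detection in the LLC sample and 0 in the MSC+LLC sample. Over all 1881 miRNAs these counts were 502 and 258. miR-17-3p gave 139.0 ± 11.5 and 44.8 ± 9.04 units with its probes on the LLC array (n = 15 each), and 9.84 ± 4.01 and 1.27 ± 3.02 on the MSC+LLC array (n = 15 each). miR-18a-3p was detected on the LLC array by 1 of 4 probes, at 78.5 ± 3.11 units (n = 6), and gave 10.7 ± 4.88 (n = 7) with this probe on the MSC+LLC array. On the MSC+LLC array neither could be given a direction after scaling, since the detection limit there lay above the signal that an unchanged share would have given. The other 7 strands gave probe means from -3.97 to 9.11 units on the LLC array and from -4.32 to 1.72 on the MSC+LLC array.

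Of the paralogous X-linked cluster miR-106a-363, miR-20b-5p was the only miRNA measured on both arrays among the 9 analysed here, while miR-106a-5p was not analysed here. miR-20b-5p shares the seed of miR-17-5p and differs from it and from miR-20a-5p at 2 of 23 positions each.
miR-20b-5p against miR-20a-5p: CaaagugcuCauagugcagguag
It gave 4712 ± 497 units (n = 15) and 1876 ± 179 (n = 15) on the LLC array, and 172 ± 28.7 (n = 15) and 76.1 ± 6.98 (n = 14) on the MSC+LLC array. Its log2 ratio was -1.17, 2.26-fold lower on the MSC+LLC array, with the probes at -1.25 and -1.10, which is lower than the 3 measured members of the miR-17 family. miR-363-3p, which has the seed of miR-25-3p, passed detection in the LLC sample alone, with 29.2 ± 1.91 units (n = 13) against 4.85 ± 5.66 (n = 15) by the detected probe. The other 7 miRNAs of this cluster were detected on neither array. Among further miRNAs with the seed of miR-25-3p or miR-17-5p, miR-32-5p, miR-92b-3p, miR-367-3p and miR-6383 were detected on neither array, at 9.53 units or less. How far probes for near-identical members also bind each other's targets was not tested.

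Markers of cells that release vesicles into blood differed between the arrays as well, where detection over all 1881 miRNAs fell from 502 in the LLC sample to 258 in the MSC+LLC sample. The labels name lung for the LLC sample, and bone marrow and lung for the MSC+LLC sample. All 6 epithelial miRNAs, those of the miR-200 family and miR-203-3p, passed detection in the LLC sample and 3 of 6 in the MSC+LLC sample, and these 3 had scaled log2 ratios from 0.18 to 0.93. Of 6 mesenchymal stromal miRNAs, 5 passed in the LLC sample and 4 in the MSC+LLC sample, with miR-145a-5p in neither, and the 4 measured on both arrays had log2 ratios from -0.56 to 0.97 with a median of 0.70. All 4 red cell miRNAs were detected on both arrays, with log2 ratios of 1.66 for miR-486a-5p, 1.06 for miR-451a and -2.33 for both miR-144-3p and miR-144-5p. The median of these 4 was -0.63, beside -0.60 for the measured members. Their summed signal was 5.79-fold lower on the MSC+LLC array without scaling, against 13.4-fold for the 9 members. Such a sum gives the most weight to the brightest miRNAs. Of 5 leukocyte and platelet miRNAs, 5 passed in the LLC sample and 4 in the MSC+LLC sample, with log2 ratios from -2.25 to 0.14 and a summed signal 11.9-fold lower. Of 3 hepatocyte miRNAs, 3 and 2 were detected, with log2 ratios of 0.78 for miR-122-5p and -0.32 for miR-192-5p. Without scaling, the summed signal was 9.14-fold lower for the mesenchymal, 9.43-fold for the epithelial and 11.97-fold for the hepatocyte miRNAs. The part of these cells in the ratios of the clusters was not tested.

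The miRNAs with at least 2 measured probes whose log2 ratio was nearest to the members' median of -0.60 were let-7b-5p at -0.60, miR-6984-5p at -0.60 and miR-6995-5p at -0.58. This likeness rests on a single ratio per miRNA from 2 arrays.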

How the data were processed

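Serum exosomal RNA of 1 LLC and 1 MSC+LLC sample was hybridized to Agilent mouse miRNA arrays in 1 colour (Cy3), and groups were taken from the titles. The authors read the scans with Feature Extraction, version 11.5.1.1 per the file headers and 10.7 in the submitters' processing notes. The deposited scanner files hold background-subtracted spot intensity on a linear scale, not scaled between arrays, with flags (other) for outliers and detection. The deposited series table gives log2 values that the authors made with GeneSpring GX. Set against the scanner files, these are log2 of the summed signal minus a constant per array (7.02 for LLC, 3.48 for MSC+LLC), with undetected miRNAs entered at 0.1 units.

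Control spots and outlier spots (3.04% and 2.95% of miRNA spots) were left out, and 0 spots were saturated. Spots of a probe were averaged, signals were scaled per array to the 75th percentile over probes passing detection on both, and the log2 ratios of these probes were averaged per miRNA. A bound sets the detected probe against its own signal on the other array or the dimmest detected probe there, whichever is higher, and none is given under 1-fold. Levels were not compared between probes. The number of arrays limits the precision, and no test was run. The members and lists were chosen with earlier results of these data known. The named miRNAs are the members, the opposite strands, the X-linked paralogs, miRNAs with the same seed, cell type markers, and the 3 nearest in ratio.

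Sequences and coordinates are those of RefSeq's GRCm38.p6 miRNA table, matched by name for 1608 of 1881 miRNAs. The file headers name the older build mm9, whose coordinates are not used here. The functions were tested on simulated data with known changes. The error of the scaling was taken out before the check, so the scaling itself was not tested. R 4.3.3 with limma 3.58.1 was used for normexp, and the rest was done in Python 3.11.15 with pandas 2.3.3, numpy 2.4.6, matplotlib 3.10.9 and scipy 1.17.1. Alternatives covered the scaling, the background correction (normexp, offset 50), the detection rule, the summary of spots and probes, and thresholds of 1.5-fold and 4-fold. The comparison at like G+C content was added after seeing the data.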

Additional observations from a re-analysis of the deposited data

How the results depend on the processing

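No paired analysis was possible because there was a single array in either group. No cause of a shift below was tested. By construction, a constant scaling moves all log2 ratios alike, and the normexp offset of 50 draws those of faint probes toward 0 before scaling. The median log2 ratios of miR-17-92, miR-106b-25 and the miR-17, miR-18, miR-19 and miR-25/92 families were, in this order, -2.15, -1.40, -1.95, -2.61, -1.91 and -0.68 when all probes set the 75th percentile, -3.15, -2.39, -2.95, -3.61, -2.91 and -1.68 with labelling spike-ins, -4.46, -3.71, -4.26, -4.92, -4.23 and -2.99 when unscaled, -3.82, -3.07, -3.62, -4.28, -3.59 and -2.35 with all spike-ins, and -4.50, -3.75, -4.30, -4.96, -4.26 and -3.03 with hybridization spike-ins. In the authors' deposited values they were -1.25, -0.59, -1.03, -1.74, -0.996 and 0.26, and with the scanner software's detection flag -1.07, -0.32, -0.87, -1.58, -0.84 and 0.40. Relative to miRNAs of like G+C content, a choice made after seeing the data, they were -0.028, -0.34, -0.44, -1.11, -0.028 and 0.27. Single medians moved beyond the spot SD in 3 more settings. Quantile normalization gave -0.40 for miR-106b-25, -0.97 for the miR-17, -1.66 for the miR-18 and 0.33 for the miR-25/92 family. Normexp gave -0.60 for miR-17-92, -0.89 for the miR-17 and -0.46 for the miR-18 family, and the brightest probe alone gave -0.36 for miR-106b-25.

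The difference between the cluster medians, 0.75, was 0.56 with the brightest probe alone, 0.53 after quantile normalization, 0.34 with normexp and -0.31 at like G+C content. The single member at least 2-fold higher, miR-92a-3p, was no longer called (0 members) with the 75th percentile of all probes, the spike-ins or no scaling. The same held for the deposited values, a 4-fold threshold and like G+C content. Of all measured miRNAs, 11.25% were 2-fold higher with the 75th percentile of all probes. The share was 3.33% to 6.25% with spike-ins or no scaling, and 23.7% in the deposited values. The ratio of miR-92a-3p changed sign to -0.96 with labelling spike-ins, -2.28 when unscaled, -1.64 with all spike-ins and -2.31 with hybridization spike-ins. The count of members at least 2-fold lower, 1, became 7 with the 75th percentile of all probes or labelling spike-ins. There, 52.9% and 75% of all measured miRNAs were 2-fold lower. The count became 8 with all spike-ins, hybridization spike-ins or no scaling, beside 85%, 90.4% and 90.4% of all. These larger counts thus went along with a shift of the whole array. The count became 4 with the deposited values, beside 19.7% of all, or with a 1.5-fold threshold. It became 3 with the detection flag (13.9% of all), and 2 with more than 75% of spots required (11.0%) or outlier spots kept (12.1%). It became 0 with normexp (4.17%) or a 4-fold threshold. Shares over all miRNAs at 1.5-fold and 4-fold are not given here. With the median of the detected probes, the median of spots or the summed signal, none of these results moved. The dim MSC+LLC array sets the depth limit, since a miRNA such as miR-17-5p falls below its background before a loss can be measured.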
